A study of Mus musculus with 12 samples.

Results

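Total RNA of the proximal small intestine of mice was sequenced from 3 libraries labelled WT (wild type) and 3 labelled Bmpr1a cKO (conditional knockout). These 6 libraries were chosen by genotype and segment in their labels and are 6 of the 12 in the series. The other 6 come from the distal small intestine of the same 2 genotypes and serve here to show where the proximal effect differs. They also enter the shared estimate of spread behind the proximal p-values, since all 12 libraries were fitted together. All 17175 genes of the deposited table were compared. Per the labels, RNA was extracted with Trizol and the Ovation RNA-Seq System V2 kit was used for cDNA, with no treatment and no time course. The promoter and cell type that drive the recombinase, and the strain, age and sex of the mice, are not given in the sources used here. Whether the 3 libraries of a genotype are 3 animals is not stated either, and the p-values therefore reflect no more than how far these samples lie apart, a spread that may be technical. Both the title and the stated aim join epithelial BMP signalling, and its crosstalk with Wnt, to how long villi are in each segment.

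The product of Bmpr1a is a type I receptor kinase at the cell surface that binds bone morphogenetic proteins (BMPs). After ligand binding it phosphorylates receptor-regulated SMAD proteins, which enter the nucleus with SMAD4 and switch on genes that include the Id family and the inhibitory SMADs, the latter feeding back on the pathway. In the small intestine BMP signalling is high along the villus and is held low at the crypt base by secreted antagonists, while Wnt signals keep the stem cells of the crypt dividing.

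The 6 proximal libraries held 14840053 to 17388612 reads. Values are read counts scaled per library, with 1 added before scaling, so that a gene without reads has a value near 1. Means are given ± SD with n = 3, and values of single libraries always run from library 1 to library 3. Epithelial identity genes such as Cdh17 and Krt20 summed to 209213 to 262984 in WT and to 226224 to 267784 in cKO libraries. Of the 13 measured, 3 were higher in cKO and 0 lower in the test used below (23.1% against 8.26% of all genes). Their median log2 fold change was 0.33, and the refit counts, defined below, were 1, 0 and 2. The duodenal factor Onecut2 stood at 1090 ± 54.7 in WT and 1630 ± 185 in cKO, against means of 14.9 and 11.4 in the distal WT and cKO groups, and did not pass between genotypes (adjusted p = 0.595). The ileal gene Fabp6, named after its values were seen, stood at 7.37, 84.2 and 632 in WT against 12.1, 5.3 and 3.73 in cKO libraries, so WT library 3 was apart from the others. Mitochondrially encoded genes took 17.4%, 26.0% and 24.9% of WT reads and 9.75%, 14.8% and 11.3% of cKO reads, without overlap. Library cKO 1 had 0 reads over 4 Y-linked genes (Eif2s3y, Ddx3y, Kdm5d and Uty), where the other 5 libraries had 1289 to 1912. By these reads cKO 1 comes from a mouse without a Y chromosome, unlike the other 5, so sex is not balanced between the genotypes. What part the mitochondrial share, library cKO 1 or the amount of other cell types has in the results was not tested.

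Bmpr1a itself (chromosome 14, 34410734 to 34503341, minus strand, mm10) gave no detectable difference over the whole gene. It stood at 1029, 772 and 1019 in WT against 911, 833 and 1087 in cKO libraries. The 2 genotypes overlapped, and the log2 fold change was 0.01 (95% interval -0.41 to 0.42, adjusted p = 0.983, limma with Benjamini-Hochberg adjustment over all genes). A count over the whole gene includes exons outside any deleted part, so it checks neither the deletion nor the labels. Within 5 Mb of Bmpr1a 6 of 71 genes passed the test (8.45%), against 8.26% of all genes. The closest were the predicted gene Gm5460, 363 kb away, and Wdfy4, 1225 kb away. Gm5460 had 0 reads in each WT library and rose to 19.2, 29.7 and 9.32 in cKO, at least 4.48-fold higher against a floor of 3 reads per library. Wdfy4, which acts in antigen presentation by dendritic cells, fell from 241 ± 157 to 56.8 ± 2.77, a call that was lost without any library but WT 1 (adjusted p up to 0.092).

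Of the 17175 genes 1418 (8.26%) passed an adjusted p of 0.05, 723 higher (4.21%) and 695 lower (4.05%) in cKO. At least a 2-fold difference was reached by 1084 of the calls (6.31% of all genes), by 428 of the higher genes (2.49%) and by 656 of the lower genes (3.82%). Libraries of the 2 genotypes did not overlap in 5828 genes (33.9%), with all cKO libraries above all WT libraries in 3544 (20.6%) and below them in 2284 (13.3%). The calls that rose and those that fell lay at different levels. At a mean log2(CPM + 1) of 5 to 7, 236 rose and 47 fell, and at 1 to 3, 122 rose and 299 fell. The direction split also moved with the scaling, from 51% higher to 40.6% with trimmed mean of M-values (TMM) factors, 39.8% in edgeR and 40.7% in DESeq2. A total of 396 calls (223 higher, 173 lower) passed in all 6 fits that each left out 1 proximal library. Where a named call did not, the libraries whose removal ended it are given. The count of calls was 1360 without WT 1, 587 without WT 2, 694 without WT 3, 810 without cKO 1, 580 without cKO 2 and 687 without cKO 3. It was 292 once the mitochondrial share was a covariate, of which 259 are among the 1418, and 766 without both cKO 1 libraries, 699 of them among the 1418. The share does not overlap between the proximal genotypes, so the covariate may take up part of the genotype effect. A call lost in that fit therefore shows no cause. Beside each gene list with calls, 3 refit counts give how many of its calls passed in all 6 fits without 1 proximal library, how many with the covariate, and how many without both cKO 1 libraries, in that order.

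**Figure D1:**
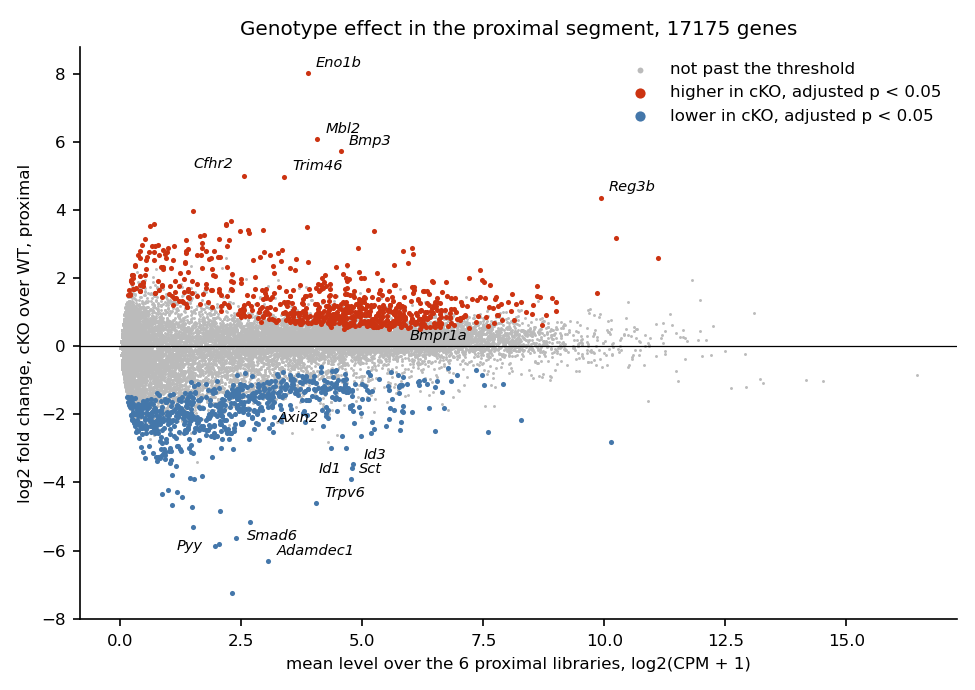
Log2 fold change of cKO over WT proximal libraries (vertical axis) against the mean level over the 6 libraries as log2(CPM + 1) (horizontal axis), 1 point per gene, red for the 723 higher and blue for the 695 lower genes past an adjusted p of 0.05. Blue points are crowded at low levels, red points at middle levels, and Bmpr1a lies on the line of no change.

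Genes that BMP signalling induces were lower in cKO. Of 11 measured members 6 fell and 0 rose (54.5% against 8.26% of all genes). The median log2 fold change of the list was -1.50 (-1.35 with Atoh8, at 0 reads in cKO, set to its bound) against 0.084 over all genes. Summed over the list, WT libraries held 5748, 5180 and 4834 and cKO libraries 993, 865 and 937. The refit counts of its 6 calls were 5, 5 and 5.

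Id proteins bind basic helix-loop-helix transcription factors and keep them from DNA. Id1 stood at 1569, 1583 and 1408 in WT against 113, 156 and 112 in cKO (log2 fold change -3.59, SE 0.22, adjusted p = 9.15e-07). Id3 went from 1678, 1565 and 1262 to 116, 155 and 137 (-3.45, SE 0.17, adjusted p = 1.48e-07). Id2 went from 778, 915 and 926 to 345, 135 and 275 (-1.89, SE 0.30, adjusted p = 0.00234). In all 3 the highest cKO library lay below the lowest WT library, and the margin was narrowest for Id2, where cKO 1 was highest. Id4, the remaining family member, did not pass and overlapped between genotypes (25.2 ± 2.45 and 31.2 ± 9.42).

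The inhibitory SMADs block receptor signalling. Smad6 stood at 479, 305 and 268 in WT against 10.1, 5.3 and 3.73 in cKO (log2 fold change -5.62, SE 0.42, adjusted p = 6.14e-06), the largest fall of the list. Smad7, which also restrains TGF-beta receptors, went from 1159, 734 and 919 to 365, 378 and 343 (-1.35, SE 0.21, adjusted p = 0.00204). Its cKO libraries lay close together and all below WT. Smad9, a receptor-regulated SMAD with few reads, fell from 10.1 ± 2.42 to 2.6 ± 1.87 (-1.74, adjusted p = 0.0341), a call lost without WT 2, WT 3, cKO 1 or cKO 2 (adjusted p up to 0.122). Atoh8 had 2.1, 10.1 and 4.3 in WT and 0 reads in each cKO library without passing the test, and Bambi, Msx1 and Gata2 overlapped between genotypes.

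The promoters of the BMP-induced genes that fell are shown because they carry, or lack, letters that SMAD complexes are known to bind. Of the 6 genes 4 matched the RefSeq promoter table (GRCm38.p6), and the 250 bases before each start are printed 5′ to 3′ on the gene's strand: Id2 chr12:25096093-25096342 (minus), Id3 chr4:136143572-136143821 (plus), Smad6 chr9:64022060-64022309 (minus) and Smad9 chr3:54755332-54755581 (plus). Id1 and Smad7 were not matched. Capitals mark GGCGCC, a GC-rich SMAD motif that reads the same on both strands, and GTCTG, the SMAD binding element, as such or as CAGAC where it lies on the other strand.
Id2: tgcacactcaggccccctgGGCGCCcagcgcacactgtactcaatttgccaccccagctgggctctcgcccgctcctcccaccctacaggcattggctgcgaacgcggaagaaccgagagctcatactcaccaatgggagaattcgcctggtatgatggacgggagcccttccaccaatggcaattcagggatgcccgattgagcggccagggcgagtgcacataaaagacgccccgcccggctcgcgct
Id3: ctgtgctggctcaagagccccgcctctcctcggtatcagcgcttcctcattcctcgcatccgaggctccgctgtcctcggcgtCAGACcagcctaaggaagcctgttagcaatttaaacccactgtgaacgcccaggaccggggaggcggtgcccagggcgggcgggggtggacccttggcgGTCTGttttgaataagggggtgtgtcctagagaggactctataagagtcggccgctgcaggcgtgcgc
Smad6: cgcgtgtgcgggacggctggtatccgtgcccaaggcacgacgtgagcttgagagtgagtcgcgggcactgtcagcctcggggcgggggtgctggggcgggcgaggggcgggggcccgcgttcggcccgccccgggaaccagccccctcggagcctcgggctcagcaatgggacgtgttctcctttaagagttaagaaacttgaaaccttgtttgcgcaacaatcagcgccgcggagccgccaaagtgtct
Smad9: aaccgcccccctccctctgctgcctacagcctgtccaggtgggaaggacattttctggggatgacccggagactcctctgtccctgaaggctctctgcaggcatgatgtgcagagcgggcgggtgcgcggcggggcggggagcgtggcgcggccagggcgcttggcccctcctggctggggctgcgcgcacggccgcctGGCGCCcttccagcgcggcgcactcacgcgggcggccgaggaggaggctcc
GGCGCC was found in Id2, 231 bases before the start, and in Smad9, 51 bases before it. GTCTG was found in Id3 only of these 4, at 167 and 68 bases before the start. Neither motif is in the Smad6 window. Over the 12780 measured genes with a promoter of this length, 15.4% held GGCGCC and 41.4% held GTCTG on either strand. The shares were 17.1% and 40.7% among genes that rose and 13.1% and 42.1% among genes that fell. These matches describe the letters of the windows and show no binding.

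Of 19 measured receptors and signal transducers of the pathway 0 rose and 1 fell (median 0.20, refit counts 0, 0 and 0), or 5.26% against 8.26% of all genes. The one that fell was Acvrl1, a type I receptor of endothelial cells, from 98.9, 83.1 and 153 to 20.2, 27.5 and 42.9 (log2 fold change -1.87, SE 0.41, adjusted p = 0.0155). That call was lost without WT 3, cKO 1 or cKO 2 (adjusted p up to 0.0648). Eng, a co-receptor of the same cells, had 28.2 ± 4.88 and 10.7 ± 4.76 and did not pass (adjusted p = 0.0772). Smad1, a receptor-regulated SMAD, did not pass either (603 ± 43.4 and 905 ± 151, adjusted p = 0.0783), although all cKO libraries lay above all WT libraries. Smad5 and Smad4 had log2 fold changes of 0.25 and 0.33, and the type II receptor Bmpr2 one of 0.54, none past the test.

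Among 15 measured ligands 2 rose and 2 fell (26.7% against 8.26% of all genes, median -0.28, refit counts 1, 1 and 3). Bmp3, which differs from most of the family in antagonizing BMP signalling, stood at 15.8, 62.9 and 91.4 in WT against 3043, 2833 and 1673 in cKO (log2 fold change 5.72, SE 0.56, adjusted p = 6.08e-05). Its lowest cKO library was far above its highest WT library. Bmp2, an activating ligand of villus epithelium, rose from 402, 314 and 354 to 532, 709 and 598 (0.78, SE 0.20, adjusted p = 0.0339), and this call was lost without any library but WT 1 (adjusted p up to 0.137). Bmp8b fell from 41.3 ± 23.3 to 3.53 ± 3.45 (lost without WT 1, WT 3, cKO 1 or cKO 2, adjusted p up to 0.0867). Tgfb1, the main TGF-beta of immune cells, fell from 489 ± 123 to 202 ± 46.8 (lost without WT 2, WT 3, cKO 2 or cKO 3, adjusted p up to 0.0837). Bmp4 and Bmp5 had few reads (means of 5.42 and 2.55 in WT) and overlapped between genotypes. Of 11 secreted antagonists 0 passed, with a median of -0.42. Fstl1, a follistatin-like protein of stromal cells, had 478, 189 and 102 in WT against 53.5, 68.9 and 46.6 in cKO, without overlap (adjusted p = 0.125), and Grem1, Chrd and Fst had means of 3.62, 8.88 and 2.53 in WT.

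**Figure D2:**
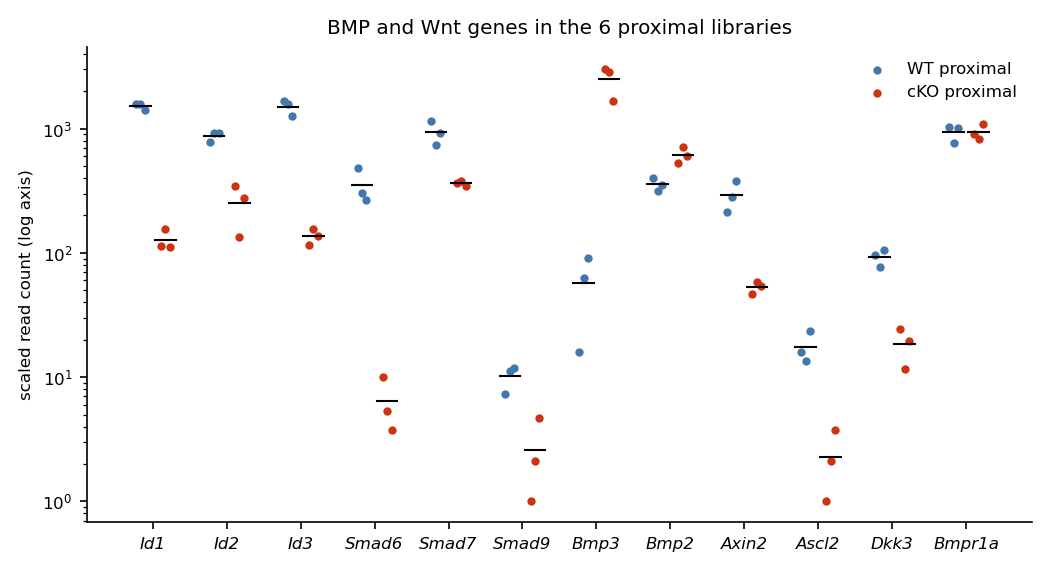
Scaled read counts (log axis) of 12 BMP and Wnt genes in the 3 WT (blue) and 3 cKO (red) proximal libraries, 1 point per library, with bars at the group means. The Id genes, the inhibitory SMADs, Axin2, Ascl2 and Dkk3 lie lower in cKO, Bmp3 and Bmp2 higher, and Bmpr1a overlaps.

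Genes of the Wnt feedback list, which holds pathway components such as Lgr4 beside induced genes, did not move in 1 direction. Of 27 measured members 6 fell and 2 rose (29.6% against 8.26% of all genes, median -0.80), and 10 fell and 2 rose with TMM factors. The refit counts of the 8 calls were 6, 3 and 7. Axin2, which promotes the breakdown of beta-catenin and feeds back on the pathway, went from 213, 281 and 379 to 46.5, 58.3 and 54.1 (log2 fold change -2.40, SE 0.36, adjusted p = 0.00181). Dkk3, a secreted Dickkopf family protein, went from 95.8, 76.3 and 105 to 24.2, 11.7 and 19.6 (-2.31, SE 0.38, adjusted p = 0.00309). Both had no cKO library within the WT range. Wif1, a secreted Wnt inhibitor, and Tnfrsf19, a receptor of stem cells, had 0 reads in each cKO library and were at least 1.97-fold and 1.81-fold lower than in WT. Ascl2, a transcription factor of crypt stem cells, fell from 17.6 ± 5.33 to 2.29 ± 1.37 (lost without WT 2, WT 3, cKO 1 or cKO 2, adjusted p up to 0.0753), and Prox1 from 56 ± 18.1 to 17.7 ± 6.48 (lost without WT 1 or cKO 2, adjusted p up to 0.0833).

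The 2 members that rose are receptors. Ephb2, which positions cells along the crypt, went from 186, 114 and 143 to 381, 558 and 494 (log2 fold change 1.70, SE 0.22, adjusted p = 6.76e-04). Lgr4, an R-spondin receptor, went from 649, 406 and 535 to 1075, 1466 and 1092 (1.20, SE 0.23, adjusted p = 0.00823). Again the genotypes did not overlap. Lgr5, the related receptor of stem cells, had 32.6, 6.73 and 49.4 in WT and 13.1, 9.54 and 7.46 in cKO, overlapped, and did not pass (adjusted p = 0.243). Rnf43 and Sp5 were lower in every cKO library than in any WT library without passing (adjusted p = 0.0539 and 0.0827), and Ctnnb1, Myc and Ccnd1 did not pass. Among 24 Wnt ligands and receptors 4 were called (16.7% against 8.26% of all genes, refit counts 0, 0 and 3). Of these 2 rose, the receptor Fzd5 (980 ± 233 to 2613 ± 532, lost without WT 2, adjusted p = 0.0501) and the co-receptor Lrp6 (651 ± 90 to 1269 ± 114, lost without WT 2 or cKO 2, up to 0.0589). The 2 that fell, Rspo1 (16.7 ± 8.65 to 2.66 ± 2.11, lost without WT 1, WT 2, cKO 2 or cKO 3, up to 0.128) and Wnt9a (20.8 ± 5.66 to 5.78 ± 4.78, lost without any library but cKO 3, up to 0.184), had few reads.

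In the stem cell list 3 of 21 genes rose and 3 fell (28.6% against 8.26% of all genes, median 0.05, refit counts 4, 3 and 4), with Axin2, Ascl2 and Clu lower and Aqp4, Lrig1 and Smoc2 higher. Lrig1, an inhibitor of EGF receptors, went from 146, 128 and 202 to 448, 537 and 526 (log2 fold change 1.68, SE 0.23, adjusted p = 8.62e-04). Smoc2, a secreted matrix protein of crypt cells, went from 57.9, 32.6 and 96.7 to 324, 348 and 223 (2.35, SE 0.37, adjusted p = 0.00258). The water channel gene Aqp4 went from 16.8 ± 11.8 to 177 ± 42.9 (3.60, adjusted p = 8.32e-04). All 3 were higher in each cKO library than in any WT library. Clu, a marker of damage-responsive cells, stood at 1232, 552 and 257 in WT against 136, 149 and 211 in cKO, and its call was lost without any library but WT 3 (adjusted p up to 0.104). Errfi1, another EGF receptor inhibitor, rose from 1163 ± 117 to 2418 ± 609 (1.03, adjusted p = 0.00575). In the Notch list of 20 genes 2 rose (Jag1 and Hes1) and 1 fell (Mfng), or 15% against 8.26% of all genes (refit counts 0, 1 and 1). These calls were lost without 5, 6 and 4 of the 6 libraries (adjusted p up to 0.0998, 0.151 and 0.146). Of 38 cell cycle and DNA replication genes 1 rose and 0 fell (2.63% against 8.26% of all genes, median -0.09, refit counts 0, 0 and 0). It was Ccnd2, a G1 cyclin, from 1031 ± 373 to 2281 ± 395, and the call was lost without any library but WT 2 (adjusted p up to 0.11). Mki67, a marker of dividing cells named outside the rule, had 254 ± 62.6 in WT and 278 ± 29.9 in cKO (adjusted p = 0.794).

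Hormone genes of enteroendocrine cells fell by large factors in part of the list. Of 11 measured hormones 4 fell and 1 rose (45.5% against 8.26% of all genes, median -0.74, refit counts of the 5 calls 3, 3 and 4). Pyy, which encodes the satiety peptide YY, stood at 276, 242 and 186 in WT against 2.02, 2.12 and 6.52 in cKO (log2 fold change -5.81, SE 0.38, adjusted p = 1.36e-06). Sct, secretin, went from 2247, 1702 and 1189 to 84.8, 104 and 151 (-3.90, SE 0.28, adjusted p = 4.75e-06). Nts, neurotensin, went from 241, 89.8 and 111 to 19.2, 15.9 and 23.3 (-2.74, SE 0.31, adjusted p = 2.05e-04). In each of the 3 the genotypes were far apart. Tac1, the substance P precursor, rose from 31.8 ± 6.21 to 94.1 ± 35.3 (lost without WT 2 or cKO 3, adjusted p up to 0.0762). The pan-endocrine granule gene Chga, named outside the rule, stood at 3227, 2026 and 1709 in WT against 1252, 1218 and 3867 in cKO, overlapped, and did not pass (adjusted p = 0.649).

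Among 23 enterochromaffin and secretory granule genes 3 fell and 0 rose (13% against 8.26% of all genes, median -0.38, refit counts 1, 1 and 1). Tph1, the rate-limiting enzyme of serotonin synthesis in gut, stood at 1142, 911 and 722 in WT against 72.7, 86.9 and 229 in cKO (log2 fold change -2.99, SE 0.36, adjusted p = 2.83e-04), with cKO 3 the highest of its group. The prohormone convertase gene Pcsk1 and its inhibitor gene Pcsk1n fell too (-1.21 and -2.41), calls lost without any library but cKO 3 (adjusted p up to 0.129) and without WT 1, WT 2, cKO 1 or cKO 2 (up to 0.0858). Of 19 transcription factors of the lineage 2 fell (10.5% against 8.26% of all genes, refit counts 1, 1 and 2). Neurod1 went from 183, 113 and 79.5 to 17.2, 24.4 and 39.1 (-2.17, SE 0.39, adjusted p = 0.00509), and Pax4 from 11.2 ± 3.37 to 2.66 ± 2.11 (lost without any library but cKO 1, adjusted p up to 0.149). Cartpt, a neuropeptide gene, had 75.8, 33.7 and 23.6 in WT and 0 reads in each cKO library, at least 11.1-fold lower. Fewer cells of a type and less RNA per cell cannot be told apart in bulk RNA, here and in the cell type lists that follow.

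Tuft cells are chemosensory epithelial cells. Of 30 measured tuft genes 10 fell and 0 rose (33.3% against 8.26% of all genes, median -1.40). In 27 all cKO libraries lay below all WT libraries, against 13.3% of all genes. These 10 calls had refit counts of 3, 2 and 7. Hpgds, a prostaglandin D synthase, went from 225, 180 and 242 to 84.8, 60.4 and 93.2 (log2 fold change -1.44, SE 0.26, adjusted p = 0.00546). Vav1, a signalling adaptor shared with immune cells, went from 878, 667 and 701 to 370, 180 and 302 (-1.45, SE 0.24, adjusted p = 0.00339). Spib, a transcription factor shared with B cells, went from 925 ± 305 to 308 ± 57.2 (-1.54, adjusted p = 0.00297). The genotypes did not overlap in these 3 genes. Ptpn6, a phosphatase of the same double expression, fell from 1730 ± 67.8 to 862 ± 212, a call lost without cKO 2 (adjusted p = 0.0588). Dclk1, the usual tuft marker, named outside the rule, had 1653, 620 and 750 in WT and 485, 230 and 431 in cKO and did not pass (adjusted p = 0.153).

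Several antibacterial products of the epithelium rose. Of 7 Reg family lectins 3 rose and 0 fell (42.9% against 8.26% of all genes, and 2 rose with TMM factors), with a median of 1.88 and refit counts of 1, 1 and 2. Reg3b, a bactericidal lectin, stood at 4466, 2249 and 4689 in WT against 76850, 52170 and 100789 in cKO (log2 fold change 4.36, SE 0.60, adjusted p = 0.00109). The lowest cKO library was above the highest WT library by a wide margin. Reg3g rose from 1617 ± 39.9 to 6072 ± 1525 (lost without WT 2 or cKO 3, adjusted p up to 0.0627) and Reg3a from 1363 ± 437 to 6901 ± 3199 (lost without WT 2, WT 3, cKO 1 or cKO 2, up to 0.16). Sequence is shared among Reg genes, which leaves the split of reads between them uncertain.

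In the list of antibacterial and oxidase genes 7 of 28 rose and 1 fell (28.6% against 8.26% of all genes, median 0.36), and the refit counts of these 8 calls were 6, 5 and 7. Mbl2, a mannose-binding lectin that starts the complement cascade, went from 31.6, 19.1 and 31.2 to 2566, 849 and 2979 (log2 fold change 6.08, SE 0.49, adjusted p = 1.08e-05). Duox2, an oxidase that makes hydrogen peroxide at the cell surface, went from 63.1, 21.3 and 21.5 to 471, 165 and 493 (3.41, SE 0.50, adjusted p = 0.00144). Lypd8, which binds flagellated bacteria, went from 12597, 20791 and 13314 to 95421, 71549 and 112545 (2.59, SE 0.38, adjusted p = 0.00155). For each of these 3 genes cKO 2 was the lowest cKO library. Ido1, an enzyme that degrades tryptophan, was the member that fell, from 2575, 1577 and 1107 to 462, 389 and 192 (-2.34, SE 0.45, adjusted p = 0.00764).

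Goblet and Paneth cell lists had shares of calls near the 8.26% of all genes. Of 29 goblet genes 3 rose and 0 fell (10.3%, median 0.02, refit counts 1, 1 and 1). Spink4, a peptide of goblet granules, went from 2076, 1593 and 1760 to 5763, 5208 and 8269 (log2 fold change 1.80, SE 0.27, adjusted p = 0.00168), and the main mucin gene Muc2 overlapped between genotypes (12681 ± 7103 and 11157 ± 2078, adjusted p = 0.957). Among 22 Paneth genes (9.09% called, refit counts 0, 0 and 0) 1 rose (Pnliprp2, from 376 ± 136 to 2018 ± 906) and 1 fell (Ang4, from 156 ± 68.4 to 41.3 ± 16.1), and both calls were lost without any 1 of the 6 libraries (adjusted p up to 0.138 and 0.148). The list median was -0.93, and all cKO libraries lay below all WT libraries in 3 of the 22 genes, near the 13.3% of all genes. Lyz1, the lysozyme of Paneth granules, stood at 896, 2032 and 3353 in WT against 1683, 1475 and 1288 in cKO. WT library 1 lay below and the other WT libraries above the cKO range.

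**Figure D3:**
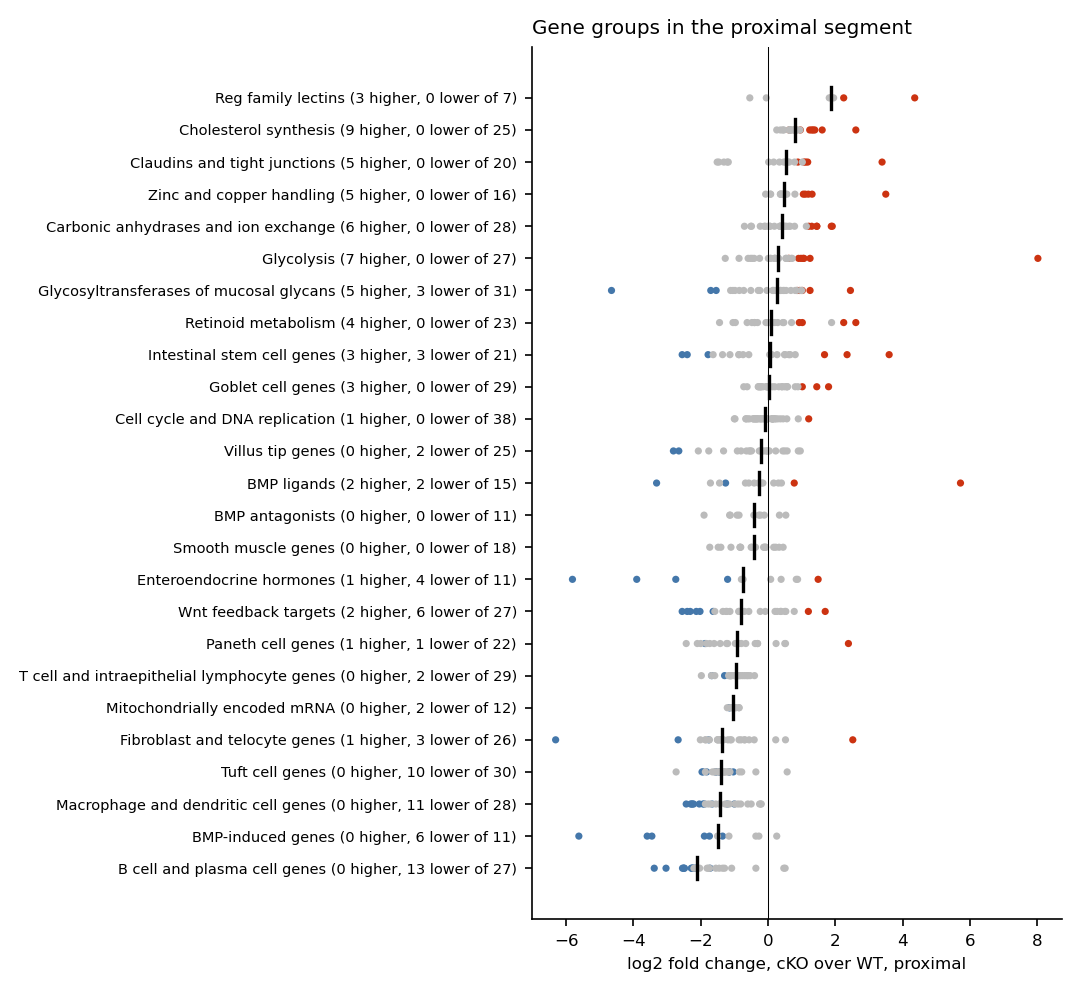
Log2 fold changes of cKO over WT for the measured members of 25 gene groups, 1 point per gene (red higher, blue lower, grey not past the threshold), with black bars at the group medians. Groups are ordered by median, from -2.12 for B cell and plasma cell genes to 1.88 for Reg family lectins.

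In the lists of disaccharidases and sugar transport (23 genes), brush border peptidases (18) and fat absorption (33), 1, 1 and 1 rose and 0, 0 and 1 fell, with medians of 0.26, 0.40 and 0.37. These shares of calls, 4.35%, 5.56% and 6.06%, stand against 8.26% of all genes, while 19, 15 and 26 members had a positive log2 fold change. Of these calls 0, 0 and 1 passed in all fits without 1 library, 0 of each list with the covariate, where the medians were -0.18, 0.07 and -0.03, and 0, 0 and 1 without both cKO 1 libraries. G6pc, glucose-6-phosphatase, rose from 264, 190 and 299 to 858, 404 and 1049 (lost without WT 2, cKO 1 or cKO 3, adjusted p up to 0.0668). Mep1a, a meprin protease of the distal brush border, rose from 657 ± 331 to 1983 ± 283 (lost without WT 2 or cKO 1, up to 0.0574). Scarb1, a receptor for lipoprotein cholesterol, fell from 1633, 1522 and 1765 to 266, 361 and 516 (log2 fold change -2.15, SE 0.36, adjusted p = 0.00347). Of 25 villus tip genes 2 fell (8%, near the 8.26% of all genes, median -0.22, refit counts 1, 1 and 2). Ada, adenosine deaminase, stood at 83155, 41188 and 37974 in WT against 11560, 3699 and 8898 in cKO (-2.81, SE 0.71, adjusted p = 0.0278), a call lost without any library but cKO 1 (adjusted p up to 0.119). Pmp22, a membrane protein, went from 1726, 556 and 897 to 325, 59.3 and 176 (-2.65, SE 0.53, adjusted p = 0.0092).

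Genes of metal, ion and calcium transport were among the calls. Of 16 zinc and copper genes 5 rose and 0 fell (31.2% against 8.26% of all genes, median 0.48, refit counts 4, 3 and 4). Slc39a8, a metal importer of the ZIP family, went from 73.7, 60.6 and 59.1 to 704, 616 and 922 (log2 fold change 3.50, SE 0.26, adjusted p = 6.14e-06). Its relatives Slc39a14 and Slc39a11 and the zinc exporter Slc30a4 rose by 1.31, 1.05 and 1.20 on the log2 scale. Trpv6, the apical calcium channel of the duodenum, stood at 1043, 1212 and 1262 in WT against 55.5, 113 and 15.8 in cKO (-4.61, SE 0.66, adjusted p = 0.00133). Slc8a1, a sodium-calcium exchanger, fell from 133 ± 31.3 to 31.8 ± 10.4 (-2.05, adjusted p = 0.00743), and the phosphate carrier Slc20a1 rose from 801 ± 298 to 2400 ± 452 (1.63, adjusted p = 0.00936). Of 28 carbonic anhydrase and ion exchange genes 6 rose and 0 fell (21.4% against 8.26% of all genes, median 0.42, refit counts 3, 0 and 5). Among them Cftr, the chloride channel of cystic fibrosis, rose from 444, 715 and 1286 to 2425, 3971 and 2253 (1.91, SE 0.36, adjusted p = 0.0066), and the potassium channel subunit Kcnq1 from 166 ± 82.3 to 569 ± 67.9 (1.88, adjusted p = 0.00419).

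Of 20 iron genes 2 rose and 2 fell (20% against 8.26% of all genes, median -0.23, refit counts 1, 1 and 1). Tfrc, the transferrin receptor, went from 308, 297 and 489 to 1435, 1231 and 1467 (log2 fold change 1.95, SE 0.25, adjusted p = 5.94e-04), with no overlap. Slc11a2, the apical iron importer, rose from 2952 ± 1259 to 8096 ± 2440 (lost without cKO 1 or cKO 3, adjusted p up to 0.0647), while Cybrd1, the ferric reductase beside it, fell from 1741 ± 920 to 469 ± 233 (lost without WT 2, WT 3, cKO 1 or cKO 2, up to 0.118). Trf, transferrin, fell from 1120 ± 551 to 261 ± 25 (lost without any library but WT 3, up to 0.103). Among 20 claudin and tight junction genes 5 rose and 0 fell (25% against 8.26% of all genes, median 0.54, refit counts 1, 1 and 2). Cldn2, a pore-forming claudin of the crypt, stood at 137, 205 and 243 in WT against 1421, 2248 and 2511 in cKO (3.39, SE 0.29, adjusted p = 1.84e-05). Its groups were far apart, and it was the call of the list that passed in every fit without 1 library.

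Lipid and sugar metabolism differed in part. Of 25 cholesterol synthesis genes 9 rose and 0 fell (36% against 8.26% of all genes, median 0.80). All 25 had a positive log2 fold change, and in 22 all cKO libraries lay above all WT libraries, against 20.6% of all genes. For these 9 calls the refit counts were 5, 1 and 6. Idi1, an isomerase of the mevalonate pathway, went from 123, 120 and 157 to 326, 448 and 288 (log2 fold change 1.39, SE 0.20, adjusted p = 0.00141). Cyp51, lanosterol demethylase, went from 617, 420 and 540 to 1104, 1813 and 1140 (1.34, SE 0.25, adjusted p = 0.0066). In both genes the lowest cKO library lay above the highest WT library. TCACNCCA, the core of the sterol regulatory element, was found in the 250 bases before the start in 3 of 17 matched promoters of the list (17.6%) and in 3.45% of all promoters. None of those 3 (Hmgcs1, Msmo1 and Srebf2) is among the genes that rose. In the fatty acid synthesis list 27.8% were called against 8.26% of all genes (refit counts of 5 calls 1, 0 and 3). Of the 18 genes 4 rose, led by Scd2, a desaturase (423 ± 79.8 to 1200 ± 236, adjusted p = 0.00753), and 1 fell, Me1, malic enzyme (1708 ± 142 to 829 ± 183, lost without WT 2, cKO 1 or cKO 3, adjusted p up to 0.0778).

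Among 27 glycolysis genes 7 rose and 0 fell (25.9% against 8.26% of all genes, median 0.31), and 5 rose with TMM factors. The refit counts of the 7 calls were 2, 1 and 3, the call that passed with the covariate was Eno1b, and the median was -0.07 in that fit. Eno1b had the largest fold change among all genes that passed, from 8.42, 10.1 and 7.52 to 2622, 2611 and 2274 (log2 fold change 8.02, SE 0.41, adjusted p = 1.48e-07). It is nearly identical in sequence to the enolase gene Eno1, so its reads are uncertain. Eno1 stood at 16333, 17235 and 14980 in WT against 12071, 11992 and 10866 in cKO, without overlap, and did not pass (-0.47, adjusted p = 0.271). Pfkl, a phosphofructokinase, rose from 892, 1120 and 1238 to 2913, 1931 and 2045 (1.07, SE 0.21, adjusted p = 0.00904). In the list of retinoid metabolism 4 of 23 rose and 0 fell (17.4% against 8.26% of all genes, median 0.08, or -0.22 with the covariate), with refit counts of 4, 2 and 4. They were the dehydrogenase genes Rdh16 (2.25), Dhrs9 (2.61) and Rdh10 (1.02) and the repressor Isx (0.93), which limits carotenoid uptake.

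Regional and enterocyte transcription factors moved both ways, 4 of 35 higher and 4 lower (22.9% against 8.26% of all genes, median 0.20, or -0.14 with the covariate, refit counts 4, 3 and 6). Tbx3, a T-box repressor, stood at 3498, 3511 and 2799 in WT against 741, 792 and 1330 in cKO (log2 fold change -1.82, SE 0.21, adjusted p = 2.57e-04). Tbx3os2, the antisense gene beside it, went from 208 ± 24 to 6.37 ± 1.84 (-4.85, adjusted p = 6.19e-06). Whether counting used the strand is not given in the sources used here, so reads of the pair cannot be told apart where they overlap. Osr2, a zinc finger factor, fell from 65.2, 49.4 and 41.9 to 18.2, 12.7 and 3.73 (-2.28, SE 0.42, adjusted p = 0.0058). Cdx1, a homeobox factor of intestinal identity, rose from 1025, 1008 and 1087 to 2008, 2286 and 1891 (0.98, SE 0.16, adjusted p = 0.0033). The 2 genotypes were apart in all 4 genes. Of 31 glycosyltransferases of mucosal glycans 5 rose and 3 fell (25.8% against 8.26% of all genes, refit counts 3, 2 and 5). The median was 0.28, 0.21 with the 2 members at 0 reads in a genotype set to their bounds, and -0.05 with the covariate. Gcnt4, a mucin core enzyme, rose from 437 ± 57.9 to 2383 ± 44.1 (2.45, adjusted p = 1.23e-04), and St6galnac1, a mucin sialyltransferase, fell from 68.4, 49.4 and 52.7 to 1.01, 1.06 and 1.86 (-4.65, SE 0.37, adjusted p = 9.27e-06).

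Several gene lists of cells outside the epithelium had lower levels in cKO. Of 28 macrophage and dendritic cell genes 11 fell and 0 rose (39.3% against 8.26% of all genes, median -1.44). Their sum was 20213, 29297 and 22120 in WT and 10451, 7959 and 8354 in cKO libraries, and 0 members were without reads in all 6. These 11 calls had refit counts of 7, 3 and 10. C1qa, a complement subunit made by macrophages, went from 955, 1687 and 1800 to 374, 249 and 197 (log2 fold change -2.43, SE 0.32, adjusted p = 7.63e-04), and its partners C1qb and C1qc fell by 2.24 and 2.27. Aif1 and the chemokine receptor gene Cx3cr1 fell by 2.30 and 2.21. All 5 lay lower in each cKO library than in any WT library.

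Among 27 genes of B cells and plasma cells 13 fell and 0 rose (48.1% against 8.26% of all genes, median -2.12), with sums of 13732, 23214 and 25698 in WT and 10734, 7235 and 7630 in cKO. The refit counts of the 13 calls were 2, 0 and 6. The 2 that passed in all fits without 1 library were Jchain, which joins secreted antibody, from 889, 1768 and 1797 to 528, 112 and 241 (log2 fold change -2.54, SE 0.48, adjusted p = 0.00698), and Mzb1, from 46.3, 46 and 124 to 22.2, 12.7 and 9.32 (-2.13, SE 0.44, adjusted p = 0.0106). For Jchain cKO 1 was the highest of its group. Igkv6-23, a light chain segment, went from 241, 405 and 565 to 45.4, 2.12 and 7.46 (-5.16, SE 0.71, adjusted p = 0.00105), and Ighg1 from 199 ± 111 to 24.6 ± 19.1 (lost without WT 3, cKO 1 or cKO 3, adjusted p up to 0.0644). Sequence shared among immunoglobulin genes leaves the split of their reads uncertain. Among 29 genes of T cells and intraepithelial lymphocytes 2 fell (6.9% against 8.26% of all genes, median -0.94, refit counts 0, 0 and 1). The sums overlapped, with cKO 1 (30059) above WT 1 (18877).

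In the fibroblast and telocyte list 3 of 26 fell and 1 rose (15.4% against 8.26% of all genes, median -1.36, refit counts 3, 2 and 3), and its sum was 30176, 16383 and 7058 in WT and 5671, 4283 and 6627 in cKO. Adamdec1, a metalloprotease of the lamina propria made by fibroblasts and macrophages, went from 438, 870 and 1218 to 8.08, 6.36 and 13 (log2 fold change -6.31, SE 0.64, adjusted p = 8.54e-05). Its WT libraries stood in the reverse order of the list's sum. Postn, a matrix protein, fell from 30.5 ± 12 to 4.2 ± 2.86 (-2.67, adjusted p = 0.00507). F3, tissue factor, which starts coagulation, rose from 30.5, 32.6 and 54.8 to 201, 324 and 168 (2.52, SE 0.39, adjusted p = 0.00218). Of 18 smooth muscle genes 0 passed (median -0.43), and of 14 pancreatic acinar genes 0 passed (median -0.72), with sums that overlapped.

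**Figure D4:**
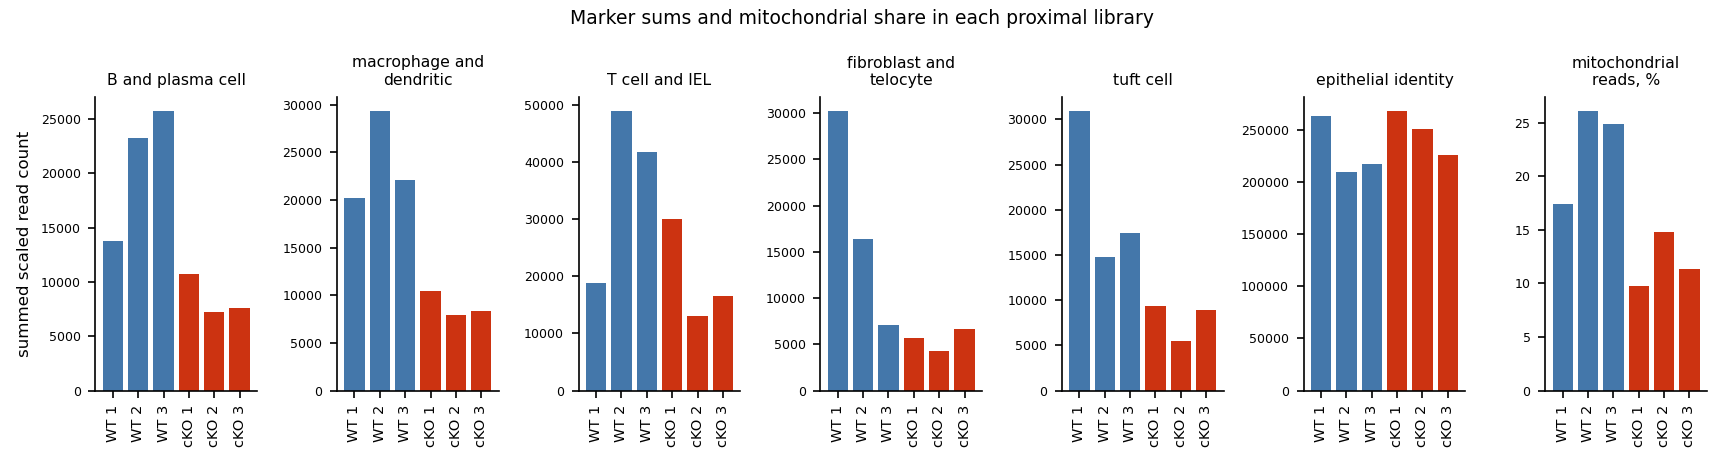
Summed scaled read counts of 6 marker lists and the share of reads from mitochondrially encoded genes in each proximal library (WT 1 to 3 in blue, cKO 1 to 3 in red, bars from 0, a scale of its own in each panel). Macrophage, B cell and tuft cell sums are lower in every cKO library than in any WT library, T cell sums overlap, and epithelial sums overlap.

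Secreted signals between these cells moved both ways. Of 36 chemokine and receptor genes 3 rose and 4 fell (19.4% against 8.26% of all genes, median -1.15, refit counts 3, 0 and 4). Ccl20, an epithelial chemokine that draws B cells and dendritic cells, rose from 172, 125 and 181 to 879, 679 and 809 (log2 fold change 2.31, SE 0.39, adjusted p = 0.00346), and Cxcl16 from 488 ± 116 to 983 ± 106 (1.03, adjusted p = 0.00753). Of 36 interleukin and receptor genes 3 fell and 0 rose (8.33%, against 8.26% of all genes, median -0.24, refit counts 2, 0 and 3). Il22ra2, a soluble decoy receptor that binds interleukin 22, fell from 35.8, 58.4 and 86 to 3.03, 8.48 and 7.46 (-3.07, SE 0.49, adjusted p = 0.00249). In Ccl20 and Il22ra2 the genotypes did not overlap.

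Of the 24 largest calls named by the rule 22 also passed with the mitochondrial share as a covariate, the exceptions being Apoa2 and Ighg1. Over all calls 259 of 1418 did. The 24 were picked from the same data for large fold changes without overlap, so their share does not carry over to other calls. Several of the 24 belong to none of these groups. Cfhr2, a gene of the complement factor H family, went from 8.42, 14.6 and 8.6 to 225, 505 and 398 (log2 fold change 4.99, SE 0.47, adjusted p = 3.89e-05). Trim46, which organizes microtubules in neurons, went from 13.7, 24.7 and 37.6 to 994, 705 and 651 (4.98, SE 0.45, adjusted p = 2.68e-05). Hddc3, a small phosphohydrolase, rose from 15.1 ± 1.51 to 206 ± 46.1 (3.66, adjusted p = 6.33e-05). The scramblase family gene Plscr2 rose from 26.8 ± 14.8 to 273 ± 104 (3.42, adjusted p = 0.00741). Apoa2, an apolipoprotein of high density lipoprotein, rose from 15 ± 6.03 to 207 ± 126 (3.56, adjusted p = 0.00206). Among falls, Dmpk, the kinase gene of myotonic dystrophy, went from 205, 101 and 128 to 8.08, 21.2 and 25.2 (-3.0, SE 0.45, adjusted p = 0.00171). For these 6 genes a lack of overlap between the genotypes was a condition of the rule, so it is no further result. Pgc, the pepsinogen C gene, fell from 74.6 ± 24 to 9.19 ± 3.55 (-2.89, adjusted p = 0.00109), while the gastric proton pump gene Atp4a rose from 2.17 ± 0.0716 to 17.3 ± 3.39 (2.52, adjusted p = 0.00339).

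Some genes were detected in 1 genotype. Of 257 genes without a read in any cKO proximal library 24 passed the test, and of 157 without a read in any WT proximal library 16 passed. Over all genes 8.26% passed. Lower bounds against a floor of 3 reads per library follow. In cKO, Shisa9, an auxiliary subunit of glutamate receptors, was at least 5-fold lower, the lectin gene Cd209a of dendritic cells at least 4.43-fold lower and the channel gene Trpc4 at least 3.42-fold lower. The photoreceptor cadherin gene Cdhr1 was at least 2.16-fold lower, a call lost without WT 2 (adjusted p = 0.0622). Higher in cKO were Gm3252 (at least 5.48-fold), the noncoding gene 1700003C15Rik (at least 3.54-fold), the synaptic gene Rims4 (at least 3.28-fold) and the lipase gene Lipk (at least 2.85-fold). Their highest cKO values were 14.1 to 28, so all are genes of few reads.

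The proximal effect was then compared with the distal one, which comes from other libraries in the same fit. The segments share the estimate of spread and the names in the sample descriptions, so calls in both are not independent. In the distal segment 4297 genes (25%) passed between cKO and WT. Of the 1418 proximal calls 928 (5.4% of all genes) were called there in the same direction, 451 higher and 477 lower, which is 65.4% of the proximal and 21.6% of the distal calls. Opposite calls were made for 6 genes (0.0349%). The difference of the 2 effects itself passed for 99 genes (0.576%), and for 434 with a block on the names in the sample descriptions (WT1, KO1 and so on), which links the proximal and distal library of 1 name by a shared correlation. Of the proximal calls 31 (0.18% of all genes) also passed in the difference, 21 of them with the larger effect in the proximal segment. The count of 99 ran from 7 (without WT distal 2) to 266 (without WT distal 3) over the 12 fits that each left out 1 library, changed by over 1.5 times in all of them but the one without WT distal 1 (89), and was 2 without both cKO 1 libraries. The count of 928 was 401, 439, 576, 398 and 487 without WT 2, WT 3, cKO 1, cKO 2 and cKO 3.

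Of the 11 measured BMP-induced genes 6 were called lower and 1 higher distally, where 25% of all genes passed, against 6 and 0 proximally. Among those that fell in both segments were Id1, Id3 and Smad6. Log2 fold changes were -3.59 proximally and -2.65 distally for Id1, -3.45 and -2.39 for Id3, and -5.62 and -3.95 for Smad6 (adjusted p of the difference 0.19, 0.0689 and 0.227). With the block on the sample names these were 0.116, 0.0262 and 0.143, so the larger proximal fall of Id3 passed in that fit. Bmp3 had 5.72 and 3.95 (0.356, or 0.193 with the block) and Mbl2 6.08 and 4.86 (0.481, or 0.33). With the block the difference passed for 21 more of the named genes and was lost for none of those that passed without it. Among the 21 were Id3, Reg3b (3.49, adjusted p from 0.0817 to 0.034), Trpv6 (-3.75, from 0.0828 to 0.0345), Tph1 (-1.77, from 0.119 to 0.0488) and Cldn2 (1.82, from 0.0691 to 0.0262), chosen here after their values were seen. A p that misses the threshold does not show that the effects are alike.

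Pyy fell by 5.81 proximally and by 1.80 distally (difference -4.02, adjusted p = 0.0117), and Sct by 3.90 and 1.93 (difference -1.97, adjusted p = 0.0452). Cfhr2 rose proximally by 4.99 and had 0.73 distally, which did not pass there (difference 4.26, adjusted p = 0.0179). Neu3, a sialidase of gangliosides, went from 58.1 ± 21.5 to 424 ± 172 proximally and had -0.71 distally (difference 3.53, adjusted p = 0.0271). Zfp503, a transcriptional repressor, went from 226 ± 56.4 to 32.7 ± 5.66 proximally and had -0.48 distally (difference -2.25, adjusted p = 0.0217). Stab1, a scavenger receptor of macrophages and sinusoidal endothelium, fell from 608 ± 99 to 165 ± 31.8 and had -0.30 distally (difference -1.58, adjusted p = 0.042).

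Opposite directions, each past the test in its segment, were seen for Acsl6, a ligase that activates long-chain fatty acids (-2.29 proximally, 1.85 distally, adjusted p of the difference 0.0184). Mfge8, a bridging protein for the uptake of apoptotic cells, rose by 2.01 proximally and fell by 1.36 distally (0.015). Blnk, an adaptor of the B cell receptor, had 0.89 and -1.12 (0.0203), and Xylt1, an enzyme of proteoglycan synthesis, had 1.20 and -1.23 (0.034). The proximal calls of Blnk and Xylt1 were lost without any library but WT 3 (adjusted p up to 0.133) and without any 1 of the 6 (up to 0.121). Ces2b, a carboxylesterase, stood at 3778, 1711 and 1489 in WT against 497, 346 and 325 in cKO proximally (-2.47, adjusted p = 0.00307), against 1.0 distally (difference -3.47, adjusted p = 0.0203). For 2 immunoglobulin genes the fall was larger distally, with -2.50 and -8.77 for Ighg2b (0.0117) and -1.72 and -5.02 for Ighm (0.0386). The difference did not pass for Igkc, Ighg1 and Igkv6-23 (0.19, 0.388 and 0.459). The proximal call of Ighg2b was lost without cKO 1 or cKO 2 (up to 0.0669) and that of Ighm without any library but WT 1 (up to 0.123).

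Lists of absorption genes and of conjugating enzymes had unequal counts in the 2 segments. Over all genes, calls in either direction were 8.26% proximally and 25% distally. Disaccharidase and sugar transport genes were called higher in 1 of 23 proximally and in 17 distally (medians 0.26 and 1.63), fat absorption genes in 1 and 18 of 33 (0.37 and 1.14) and conjugating enzymes in 2 and 23 of 35 (0.13 and 1.5). In the test of the difference 0 members of the first 2 lists passed, so their unequal counts are given as counts only. Of the 35 conjugating enzymes 5 passed, against 0.576% of all genes, each with a proximal log2 fold change below the distal one. The number of genes passing that test changed strongly with single libraries, as given above.

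**Figure D5:**
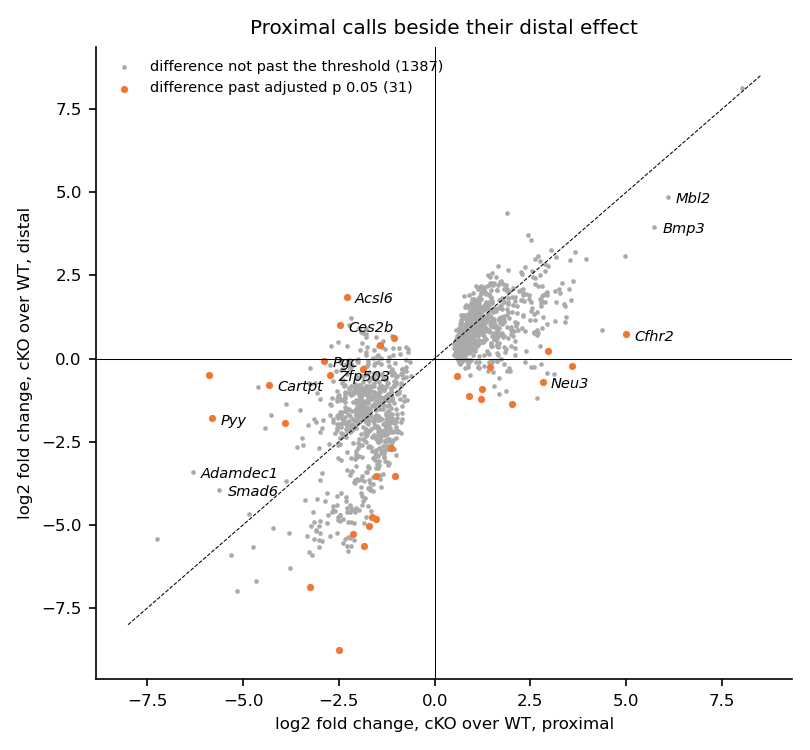
Log2 fold change of cKO over WT in the distal segment (vertical axis) against that in the proximal segment (horizontal axis) for the 1418 proximal calls, orange where the difference of the effects passed an adjusted p of 0.05 (31 genes), with a dashed line of equal effects. Most points lie in the quadrants of equal sign, and Acsl6, Ces2b and Neu3 lie in those of opposite sign.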

How the data were processed

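RNA of 12 intestinal libraries was sequenced and analysed from 1 deposited table. Per the submitters' processing notes, STAR (version not given), DESeq2 1.28.1 and mm10 were used. The values are a signal, counts plus 1 divided by a size factor, as found from the deposited columns: all 206100 values were whole multiples of 1 step per library (10499 at 1 step) within 1e-08, so reads were recovered. The log2 fold changes, score and p-value columns deposited by the authors compare cKO proximal with WT distal libraries (median distance 0.00169 from that contrast) and were not used.

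Groups came from the labels. limma 3.58.1 (R 4.3.3) was fitted with an intensity trend to log2(value + 1) of 4 group means over 12 libraries, without a block, and p-values were adjusted by Benjamini-Hochberg over 17175 genes with a threshold of 0.05. Fold changes are on that scale, which understates those of low genes. The filter (above 1 in 3 libraries) removed 0 genes. The script was tested on simulated data. Alternatives were edgeR 4.0.16, DESeq2 1.42.0, voom, TMM factors, other pseudocounts and read filters, blocks, a mitochondrial covariate and libraries left out. Same-numbered WT and cKO libraries did not deviate together (correlations -0.148, -0.081 and -0.113), whereas proximal and distal libraries of 1 name did (0.158 to 0.323).

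The comparison, its 70 gene lists and the tests were chosen with earlier results of these data known. Genes named are Bmpr1a, the 12 largest calls per direction (mean log2 CPM of 2 or more, no overlap, no predicted genes), up to 4 members per list by p, up to 3 calls of a list's rarer direction, all members of the BMP and Wnt feedback lists, up to 8 per direction with the largest difference between segments, up to 6 per direction without reads in 1 genotype, and up to 6 calls nearest Bmpr1a. Others are marked as named outside the rule or serve as checks.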

Additional observations from a re-analysis of the deposited data

Results flagged for a closer look

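For 23 genes named by the rule, the genotype effect differed between the proximal and distal segments in limma's test of the difference itself (adjusted p under 0.05). Values are the proximal minus the distal log2 fold change of cKO over WT. The difference was positive for Ighg2b 6.27, Cfhr2 4.26, Neu3 3.53, Mfge8 3.37, Ighm 3.30, Mzb1 3.13, Slc40a1 2.76, 1700003C15Rik 2.74, Parvg 2.49, Xylt1 2.43, Blnk 2.0 and Spib 2.0. It was negative for Acsl6 -4.14, Pyy -4.02, Cartpt -3.56, Ces2b -3.47, Pgc -2.81, Gstm1 -2.41, Zfp503 -2.25, Sct -1.97, Gsdme -1.84, Me1 -1.68 and Stab1 -1.58. Among the positive values, those of the immunoglobulin genes Ighg2b and Ighm and of Mzb1, which acts in antibody secretion, belong to genes that fell in both segments and more so distally. Pyy, Sct and Cartpt are hormone or neuropeptide genes of enteroendocrine cells, and all of them were lower in cKO proximally. Over all genes 99 differences passed, and 2 without both cKO 1 libraries.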

How the results depend on the processing

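The count of proximal calls, 1418, was 1290 in edgeR on the recovered reads, 2322 in DESeq2, 292 with the mitochondrial share as a covariate, 766 without both cKO 1 libraries and 580 to 1360 without 1 library. At least 2-fold calls (1084) became 281 with that covariate, 709 without both cKO 1 libraries and 529 to 1113 without 1 library. The difference between segments (99) was called for 59 genes in edgeR, 595 in DESeq2, 20 with voom weights, 2 without both cKO 1 libraries and 7 to 266 without 1 library. Calls shared by the segments (928, a count added after seeing the data) became 1545 in DESeq2, 135 with the covariate, 460 without both cKO 1 libraries and 398 to 1133 without 1 library. The causes were not tested.

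With a block on the replicate number 1388 genes passed, 1081 of them at least 2-fold, and 94 in the difference. With a block on the sample names (shared correlation 0.195) the counts were 1453, 1104 and 434. Within the 6 proximal libraries alone 1659 genes passed (1081 at least 2-fold), and 540 (458) with a replicate block. For the genes named, 6305 refitted values kept their side of the threshold, 821 lost and 166 gained the call. Direction was compared only where the main fit or the refit made a call, and 0 of those values reversed. A gene with few reads has a value near 1, so depth limits folds at that end.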

Other observations

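Some genes with large proximal differences lie outside the naming rule and were chosen after their values were seen. BC018473, a noncoding gene, stood at 213, 554 and 483 in WT against 1.01, 3.18 and 0.932 in cKO (-7.25 on the log2 scale, limma adjusted p = 5.19e-07), and its distal value was -5.42. No cKO library lay within the WT range. Apoe, an apolipoprotein made by macrophages among other cells, fell from 11373 ± 3201 to 2497 ± 473 (-2.16, limma adjusted p = 0.00289).

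Plscr1 and Plscr4, scramblase family genes like Plscr2, rose by 2.01 and 1.73 on the log2 scale (limma adjusted p = 8.54e-05 and 0.0092). Chst4, a sulfotransferase of mucosal glycans, rose from 359 ± 64.1 to 2521 ± 540 (log2 fold change 2.80), and Dmbt1, a mucosal scavenger protein that binds bacteria, by 1.78 (limma adjusted p = 5.44e-04 and 0.00894). Pgap1, an enzyme of lipid anchor remodelling, rose by 2.89 (limma adjusted p = 9.35e-05).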
